A study of Mus musculus with 93 samples.

Results

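Cytosolic ribosomal proteins are the protein components of the ribosome, which translates messenger RNA in the cytosol. The genes described here are the protein-coding genes of the count table whose symbols follow the pattern of that family (Rps or Rpl, a number and at most 1 of the letters a, x or l), together with Rpsa, Rplp0, Rplp1 and Rplp2. The rule found 64 genes among 30235, with 23 small-subunit and 41 large-subunit names, and it used symbols only, not measured values. Rplp1 has no values here, and 17 annotated mouse genes that fit the rule, among them Rps27, Rpl39 and Rps27l, were not analysed here. Rps4l is annotated as a pseudogene and so is no member.

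The samples were neural retina and posterior eyecup, the eye with lens and retina removed, of untreated female mice. The mice were wild type (labelled Wt) or Efemp1ki/ki, homozygous for a knock-in of Efemp1, which encodes the matrix protein fibulin-3. The series presents these mice as modelling Doyne honeycomb retinal dystrophy, a macular disorder passed on in families in which drusen-like material collects beneath the pigment epithelium. The knock-in change itself and the mouse strain are not stated in the labels, and in the eyecup the pigment epithelium is only 1 of several tissues. Mice were 3, 9 or 17 months old. Each of the 12 groups had 8 libraries except the wild-type eyecup at 3 months with 6 and the Efemp1ki/ki eyecup at 17 months with 7, giving 93 libraries (45 eyecup, 48 retina). The labels do not say whether libraries of the same group came from different animals, so p-values reflect library-to-library spread, which may be technical.

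A ribosome needs 1 copy of most of its proteins, and in mammals most of the genes for them are transcribed strongly and steadily in nearly all cells. Their messenger RNAs typically begin with a terminal oligopyrimidine (TOP) tract, a C followed by a run of C and T, through which the growth-signalling kinase mTOR controls their translation. A few members are tissue-restricted copies, such as Rpl3l, the striated-muscle counterpart of Rpl3, and Rpl10l and Rpl39l, which are known from the testis.

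The tract is shown for members on which the results below turn, because it is the sequence feature for which the family is known. The first 20 bases of an annotated coding transcript (GENCODE vM21, GRCm38) are given 5′ to 3′, with the opening pyrimidine tract in capitals. Rps24 and Rps2 were among the members that differed most between tissues, and Rps18, Rps3 and Rps15a were lower at 17 months in the retina of both genotypes. Where transcripts of a gene differ, the transcript with the longest tract is shown. Such a start was in 2 of 5 coding transcripts of Rps24 and 1 of 4 of Rps2. For Rps18, Rps3 and Rps15a it was in 1 of 2, 1 of 3 and 2 of 6. Rplp0, which had the smallest p between tissues, and Rpl3l have no such start in any annotated coding transcript. Nor do Rps20 and Rpl13, which also differed between tissues. Rps6, Rps14, Rpsa, Rpl5, Rpl7, Rpl9, Rpl15, Rpl19 and Rpl21, lower in both genotypes, lack it too.
Rps24: CTCTTTTCCTCCTCTCCagc
Rps2: CTTCTTCTTCTTCgggagaa
Rps18: CTCTTCCacaggaggcctac
Rps3: CCTTTCCTTTCagcggcgcg
Rps15a: CTTTCCacagccaccatggt
Rplp0: gagtgacatcgtctttaaac
Rpl3l: accgaggactgcctggacct
A start with C and at least 4 more pyrimidines was found in 18 of 63 annotated members (28.6%) and in 5.12% of 21877 coding genes. Annotated starts are often a few bases away from the start used in a cell, so a start without the tract says only that these letters are not at that annotated position.

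Promoter windows from RefSeq (GRCm38.p6, 300 bases around a gene's start) matched 48 of the 64 members. The letters CCGGAAG, a core recognised by ETS-family transcription factors, were present on either strand in 19 of the 48 (39.6%) against 9.93% of 27025 genes. The letters GGGCGG (a GC box) were in 62.5% against 38.2%, and TATAAA was in 6.25% against 15.7%. CTTTCC, a pyrimidine run, was in 52.1% against 29.3%, and AAGATGG, the core of a YY1-type site, in 12.5% against 7.28%. The matches could lie on either strand and anywhere in the window, so the CTTTCC share does not count TOP tracts at transcript starts. These shares are descriptions of letters and were not tested. The windows of 3 members, chosen after their values and letters were seen, are printed as examples: Rps18 and Rps6, which fell in the retina of both genotypes and carry the ETS letters, and Rplp0, whose TATAAA begins 18 bases after the start. Rps15a and Rpl5 also fell in both genotypes, and the ETS letters are not in their windows of the length printed here. Each runs from 100 bases before to 30 bases from the RefSeq start on the gene's own strand, with the matched letters in capitals.
Rps18, chr17:33955636-33955765, minus strand: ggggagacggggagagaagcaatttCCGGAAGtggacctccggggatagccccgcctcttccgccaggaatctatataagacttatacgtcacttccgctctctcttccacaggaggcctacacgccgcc
Rps6, chr4:86857338-86857467, minus strand: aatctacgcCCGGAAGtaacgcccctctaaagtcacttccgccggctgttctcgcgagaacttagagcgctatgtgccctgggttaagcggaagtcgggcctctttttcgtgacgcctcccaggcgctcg
Rplp0, chr5:115559367-115559496, plus strand: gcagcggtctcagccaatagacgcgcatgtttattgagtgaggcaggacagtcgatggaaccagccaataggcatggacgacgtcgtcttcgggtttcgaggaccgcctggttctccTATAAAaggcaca

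Library totals lay between 9218127 and 37475492 estimated counts. The pigment epithelium gene Rpe65 had a median of 125 CPM (counts scaled to a common library total) in the eyecup and 4.58 in the retina. The corneal gene Krt12, at 15238 CPM, and the muscle gene Acta1, at 1456 CPM, were also abundant in the eyecup. Library 7 of the Efemp1ki/ki eyecups at 9 months, library 4 of those at 17 months, library 5 of the Efemp1ki/ki retinas at 3 months and library 2 of the wild-type retinas at 17 months stood apart from their groups by their correlations. Library 4 of the Efemp1ki/ki eyecups at 3 months had the steepest dependence of its levels on GC content among the eyecups and the fewest mitochondrially encoded counts, 10568 CPM.

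Levels per length were compared with the TPM that the authors deposited, a level scaled by transcript length and library total. The highest medians in the eyecup were those of Rpl13 (2367 TPM), Rps4x (1910 TPM) and Rps18 (1558 TPM). In the retina they were those of Rpl9 (945 TPM), Rpl8 (784 TPM) and Rps6 (731 TPM), the last encoding the substrate of S6 kinase. Proteins that sit together in equal numbers in the ribosome were thus listed at very different levels. Rpl34 had a median of only 2.08 TPM in the eyecup and 4.47 TPM in the retina, Rpl32 3.38 and 5.41, Rpl26 5.11 and 5.22, Rps13 4.76 and 11.0, and Rpl12 10.3 and 5.08. Rps25, at 22.5 and 12.1 TPM, and Rps15, at 15.1 and 31.2 TPM, were also low, and Rpl5 (36.8 and 49.4 TPM) and Rpl27 (50.6 and 37.3 TPM) came not far above them. All of these belong to the general set that most cells use.

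The table used here holds few genes with short transcripts, ribosomal or not. Of 696 annotated coding genes whose longest transcript is at most 600 bases, 10 (1.44%) have values in the table used here, against 41.4% of those of 600 to 700 bases and 95.3% of those above 2000 bases. The longest transcript had a median of 665 bases for the rule's 17 genes without values and 1151 bases for the 63 annotated ones with values. Of the 7 members named as low, Rps15 (572 bases), Rpl26 (657) and Rpl32 (906) lie below that median, and Rpl34 (1232), Rps25 (1280), Rps13 (2363) and Rpl12 (2863) lie above it. The part of transcript length in the low levels was not tested.

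Copies are a second limit, since ribosomal protein genes have many processed pseudogenes from which reads can be hard to separate. Beside Rpl10a, at a median of 482 TPM in the eyecup and 374 in the retina, 2 rows named as Rpl10a pseudogenes summed to medians of 435 and 280 TPM. Rows named as Rps2 pseudogenes summed to 5.83 TPM in the eyecup and 49.6 in the retina, and those of Rps6 to 3.76 and 17.5. Beside Rpl14, at 733 and 360 TPM, 1 such row had 41.1 and 34.4 TPM. Values of Rpl10a are therefore uncertain, and to a lesser degree those of Rpl14, Rps2 and Rps6. Only pseudogene rows named after a member were counted. Pseudogenes under other names were not looked for, so the other members, the low ones included, are not shown to be free of this limit.

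**Figure D1:**
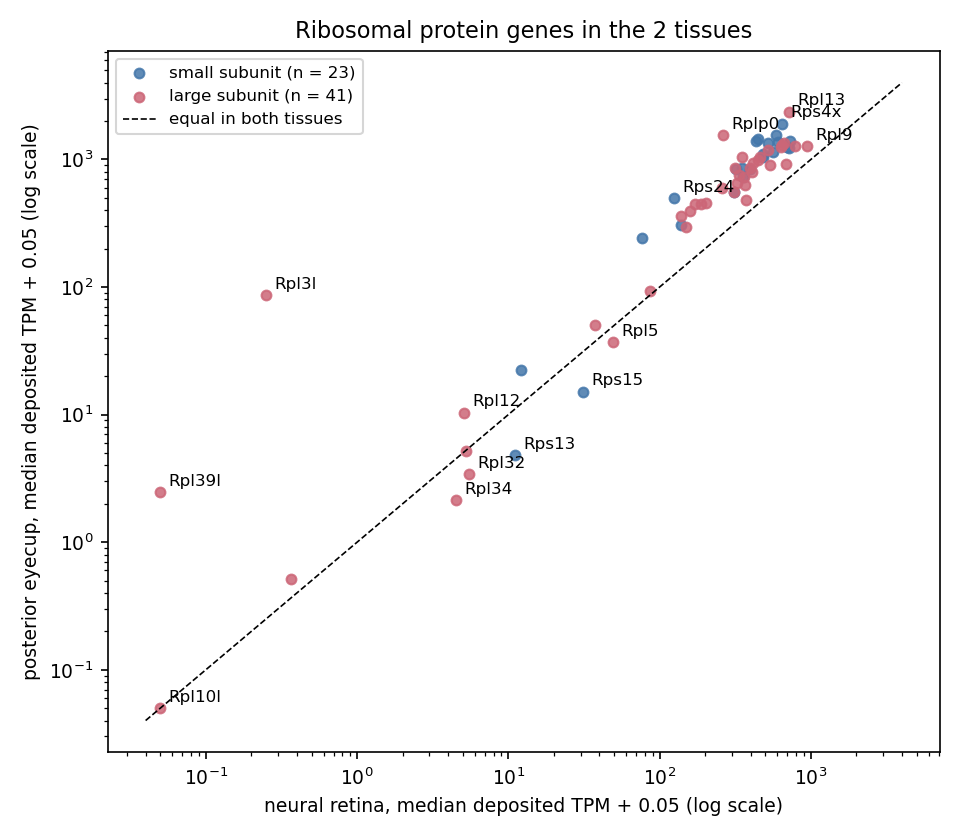
Median deposited TPM of each of the 64 genes in 48 retinas (x axis) and 45 eyecups (y axis), both on log scales with 0.05 added, coloured by subunit. Most genes lie in a cloud above the line of equality, Rpl3l (86.0 TPM in the eyecup, 0.200 in the retina) lies far above it, and Rps13, Rps15, Rpl32 and Rpl34 lie below it at low levels.

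The first comparison was between the tissues. Ribosomal protein messages took 1.39 to 2.62% of an eyecup library's counts (median 1.97%) and 0.598 to 0.794% of a retina library's (median 0.683%), with no overlap. Of the deposited TPM they took 3.17 to 6.62% (median 4.85%) in eyecups and 1.95 to 2.39% (median 2.18%) in retinas. On that scale the tissues lay closer together. In bulk tissue, fewer cells of a type and less RNA per cell cannot be told apart. Of the 62 members tested, 58 were higher in the eyecup and 2 lower at an adjusted p under 0.05 (edgeR's quasi-likelihood test with Benjamini-Hochberg adjustment, mean over genotypes and ages). Among all 19210 genes 47.7% were higher and 47% lower, so a call alone does not set the members apart from other genes. Rpl3l and Rpl39l are among the 58 and passed the filter on low counts through the eyecup only, so they had to differ. The median log2 fold change was 1.78 over the members and 0.01 over all genes, and it was 1.89 for the small subunit and 1.75 for the large. The scaling of the libraries (TMM) pulls the middle of all genes towards 0. The 0.01 is therefore largely set by the scaling, and the 1.78 is relative to it.

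**Figure D2:**
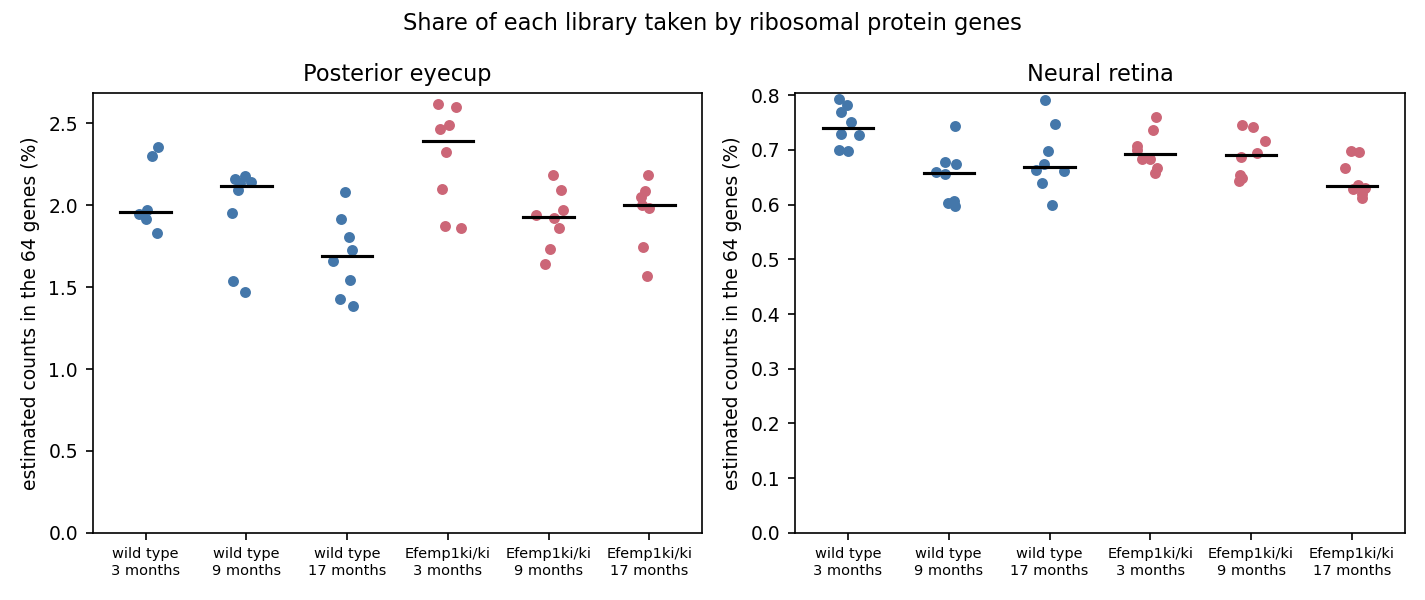
Share of each library's estimated counts that fell in the 64 genes (y axis, %, with separate scales for the tissues), by genotype and age; points are libraries and bars are group medians. The eyecups lie between 1.39 and 2.62% and the retinas between 0.598 and 0.794%.

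Rplp0, which encodes the base of the ribosome's P stalk, ranged from 95.1 to 153 CPM in the retina (median 119) and from 735 to 1651 CPM in the eyecup (median 1168). Every eyecup lay above every retina, and the log2 fold change was 3.30 ± 0.05 (SE, adjusted p = 2.99e-75, edgeR). Its stalk partner Rplp2 rose less, from a median of 47.4 CPM to 206 CPM (2.18 ± 0.06). Rps24 was next among the general members, with 25.6 to 43.6 CPM in the retina (median 31.2) and 124 to 297 CPM in the eyecup (median 208), again with no overlap (2.69 ± 0.05). Rps20 (2.44 ± 0.04), Rpl13 (2.43 ± 0.04) and Rps2 (2.40 ± 0.04) followed. Rpsa, whose protein is also known as the laminin receptor, differed by 1.78 ± 0.04, and Rps27a, which is made as a fusion with ubiquitin, by 1.44 ± 0.04. Thus genes whose products enter the same particle differed between tissues by unequal amounts.

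Rpl5 and Rpl11 encode partners that bind 5S ribosomal RNA and, when free, the p53 regulator Mdm2. They differed unequally: Rpl11 was 1.75 ± 0.04 higher in the eyecup, and Rpl5 0.27 ± 0.04. Rpl5 ranged from 23.6 to 44.7 CPM in the retina (median 31.1) and from 19.1 to 47.3 CPM in the eyecup (median 37.1), so the tissues overlapped widely. On the per-length scale the order for Rpl5 was the other way round, 49.4 TPM in the retina and 36.8 in the eyecup. The direction for Rpl5 thus hangs on the scale.

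Rps13 and Rps15 were the 2 members called lower in the eyecup. Rps13 had a median of 2.78 CPM in the eyecup and 3.91 CPM in the retina (-0.47 ± 0.07, adjusted p = 3.58e-10, edgeR), and Rps15 3.57 and 4.49 CPM (-0.43 ± 0.09, adjusted p = 8.42e-06). In both, the tissues' ranges overlapped. With offsets for GC content and transcript length, chosen after seeing the data, Rps15 was no longer called (-0.08, adjusted p = 0.365). Rpl32 (-0.02 ± 0.08) and Rpl34 (-0.19 ± 0.11, adjusted p = 0.0758) were not called. These 4 genes belong to the group listed at very low levels.

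The related lists were read from the same fit. Of 29 translation factors and other TOP messages, 25 were higher in the eyecup and 2 lower (median 1.13). Of 72 mitochondrial ribosomal proteins, which serve the separate ribosome of mitochondria, 61 were higher and 8 lower (median 0.45). Of 39 ribosome biogenesis genes, which encode the factors that assemble ribosomes in the nucleolus, 23 were higher and 12 lower (median 0.10). The cell makeup of the tissues differed at the same time. All 13 corneal and conjunctival markers, all 12 muscle markers, all 11 immune markers and 10 of 11 pigment epithelium markers were higher in the eyecup, and all 13 rod markers were lower. In eyecups the summed corneal and conjunctival markers ran from 27279 to 77503 CPM and the rod markers from 220 to 28132 CPM. In retinas these sums were 21.5 to 379 and 49878 to 72496 CPM. Immune markers summed to 366 to 1177 CPM in eyecups (retinas 26.0 to 85.8 CPM), and pigment epithelium markers to 770 to 3349 CPM (retinas 379 to 638 CPM). Most of the pigment epithelium sum in retinas came from the 1 marker that was lower in the eyecup. That sum therefore does not measure the other 10 markers there. Their part in the difference was not tested.

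Tissue-restricted copies stood apart from their namesakes. Rpl3l ranged from 17.0 to 249 CPM in the eyecup (median 65.5) and from 0 to 0.387 CPM in the retina (median 0.098), where 3 of 48 libraries were at 0. No fold is given for it, since the retina level is a few reads. The general gene Rpl3 was 1.13 ± 0.03 higher in the eyecup on the log2 scale, with medians of 915 TPM there and 684 TPM in the retina. Within the eyecups Rpl3l followed the summed level of 12 skeletal muscle genes, whose sum spanned 2387 to 42097 CPM there and 12.4 to 20.4 CPM in the retinas. On the log2 scale over 45 eyecups Pearson's r was 0.996 and Spearman's rho 0.995 (permutation p = 1e-05 for each, the smallest that 100000 permutations can give, and 2e-05 adjusted over the 2 relations). Without the 2 libraries farthest from the median muscle level r was 0.995, and within the 6 groups it ran from 0.988 to 0.999. For Rpl3 the same relation did not pass (r = -0.17, permutation p = 0.261, and rho = -0.25, permutation p = 0.0935, the same values adjusted over the 2). Without the 2 libraries its r was -0.30, and within the 6 groups it ran from -0.71 to 0.72. Rpl39l was present at low level in eyecups, at a median of 0.649 CPM, and was at 0 in 40 of 48 retinas, where it did not pass the filter on low counts. Its namesake Rpl39 was not analysed here. Rpl10l did not pass the filter in either tissue, with medians of 0 TPM, while Rpl10 had medians of 556 TPM in the eyecup and 312 TPM in the retina. Rpl6l, at 0.466 and 0.314 TPM, did not pass either.

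**Figure D3:**
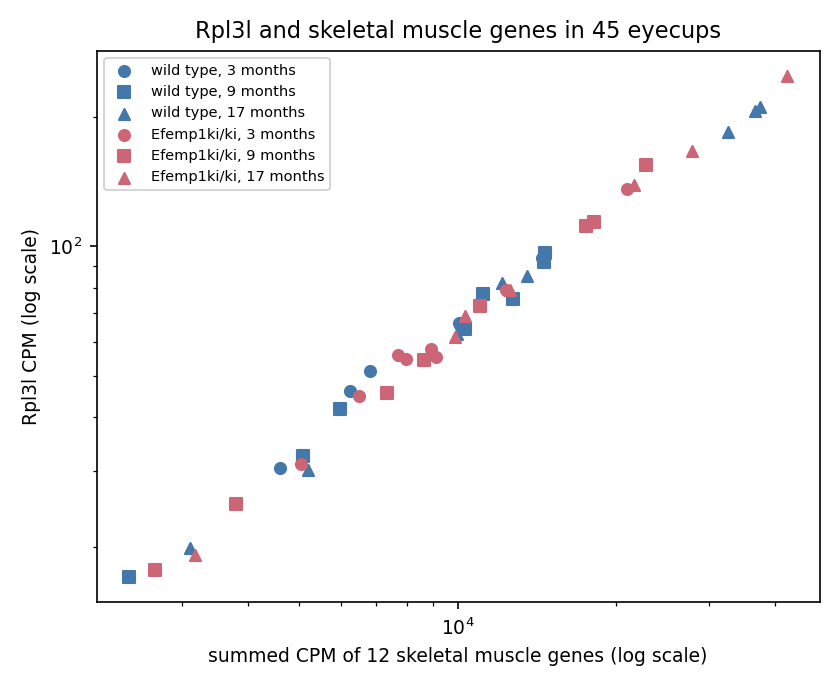
Rpl3l (y axis, CPM) against the summed CPM of 12 skeletal muscle genes (x axis) in the 45 eyecups, both on log scales, with colours for genotype and symbols for age. The points of all 6 groups lie along 1 line over muscle levels from 2387 to 42097 CPM.

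Members varied together within groups. After centring each group, the median correlation between 2 members over the 45 eyecups was 0.83, and over the 48 retinas it was 0.55; libraries share depth, composition and GC dependence, so these values describe the libraries. In the eyecup 53 of 62 members had a median correlation of at least 0.5 with the others, and in the retina 45 of 60 did. Rpl3l (0.18), Rpl39l (0.01), Rps13 (-0.16), Rps15 (-0.06) and Rpl32 (0.05) were among those that did not in the eyecup. The within-group SD of a member's log2 level had a median of 0.27 in the eyecup and 0.12 in the retina.

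Age was compared at 17 against 3 months within each genotype. In the wild-type retina 24 of 60 members fell (40.0%) and 0 rose, where 7.92% of all 17240 genes fell and 9.89% rose. In the Efemp1ki/ki retina 20 of 60 fell (33.3%) and 0 rose, where 9.01% of all genes fell and 9.74% rose. The changes were small, with median log2 fold changes over the members of -0.15 and -0.13 and over all genes of -0.0025 and 0.0058. In both genotypes 14 members fell, which is 58.3% of the wild-type list and 70.0% of the Efemp1ki/ki list. Over all genes 769 fell in both, which is 56.3% of the 1366 that fell in wild type and 49.5% of the 1553 that fell in Efemp1ki/ki; the overlaps are a description. Among the 14 were Rps3, Rps6, Rps14, Rps15a, Rps18 and Rpsa of the small subunit and Rpl5, Rpl7, Rpl9, Rpl15, Rpl19 and Rpl21 of the large. The 2 comparisons use separate libraries but 1 estimate of the spread. By subunit, 12 of 23 small-subunit and 12 of 37 large-subunit members fell in wild type, and 9 and 11 in Efemp1ki/ki.

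Rps18, a protein of the small subunit's head, ran from 118 to 140 CPM in wild-type retinas at 3 months (median 129) and from 98.8 to 128 CPM at 17 months (median 111). The ranges overlapped, and all 8 of the older retinas lay below the younger median (-0.21 ± 0.05, adjusted p = 0.00415, edgeR). In Efemp1ki/ki it ran from 108 to 135 CPM (median 116) and from 98.0 to 117 CPM (median 103), with 7 of 8 below the younger median (-0.19 ± 0.05, adjusted p = 0.008).

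Rpl21, a large-subunit protein, ran from 163 to 190 CPM in wild type at 3 months (median 173) and from 132 to 194 CPM at 17 months (median 150). The highest of the older values, 194 CPM, was that of library 2, which stood apart, and 7 of 8 lay below the younger median (-0.20 ± 0.05, adjusted p = 0.00428, edgeR). In Efemp1ki/ki the values were 146 to 183 CPM (median 167) and 132 to 151 CPM (median 142), overlapping, with 8 of 8 below the younger median (-0.20 ± 0.05, adjusted p = 0.00369).

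Rps27a gave the smallest p in wild type. It ran from 159 to 189 CPM at 3 months (median 167) and from 128 to 169 CPM at 17 months (median 143), a change of -0.24 ± 0.05 (adjusted p = 0.00173, edgeR). In Efemp1ki/ki its medians were 156 and 140 CPM, and it did not pass (-0.14 ± 0.05, adjusted p = 0.0683). Whether the 2 genotypes differ in this was tested for every gene as an interaction, and 0 of 60 members passed.

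Rps15a had the fourth smallest p in wild type, with medians of 150 and 135 CPM (-0.14 ± 0.04, adjusted p = 0.00472, edgeR). Among the clearest in Efemp1ki/ki, Rps6 had medians of 219 CPM at 3 months and 185 CPM at 17 months (-0.21 ± 0.05, adjusted p = 0.00537), Rps3 180 and 152 CPM (-0.21 ± 0.05, adjusted p = 0.00619) and Rps14 135 and 116 CPM (-0.22 ± 0.06, adjusted p = 0.00625). The corresponding wild-type changes were -0.15 ± 0.05, -0.16 ± 0.05 and -0.23 ± 0.06, all called. Rpsa fell by 0.15 in wild type and by 0.18 in Efemp1ki/ki, and Rpl5 by 0.23 and 0.27.

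Of the 60 members tested, 30 fell in at least 1 genotype. The rest, among them those named next, gave no call in either. Rplp0, the gene with the smallest p between tissues, gave -0.08 ± 0.06 and -0.03 ± 0.06, Rpl11 -0.12 ± 0.06 and -0.08 ± 0.06, and Rps23 0.08 ± 0.10 and 0.07 ± 0.10. Rplp2 gave -0.20 ± 0.14 in wild type and 0.02 ± 0.14 in Efemp1ki/ki, where its sign turned with GC offsets, with GC and length offsets and without library 5 at 3 months. Rpl34 pointed upwards in both, at 0.57 ± 0.24 and 0.60 ± 0.24 (adjusted p = 0.0828 and 0.0678, edgeR), from medians of 0.730 CPM at 3 months in each genotype.

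**Figure D4:**
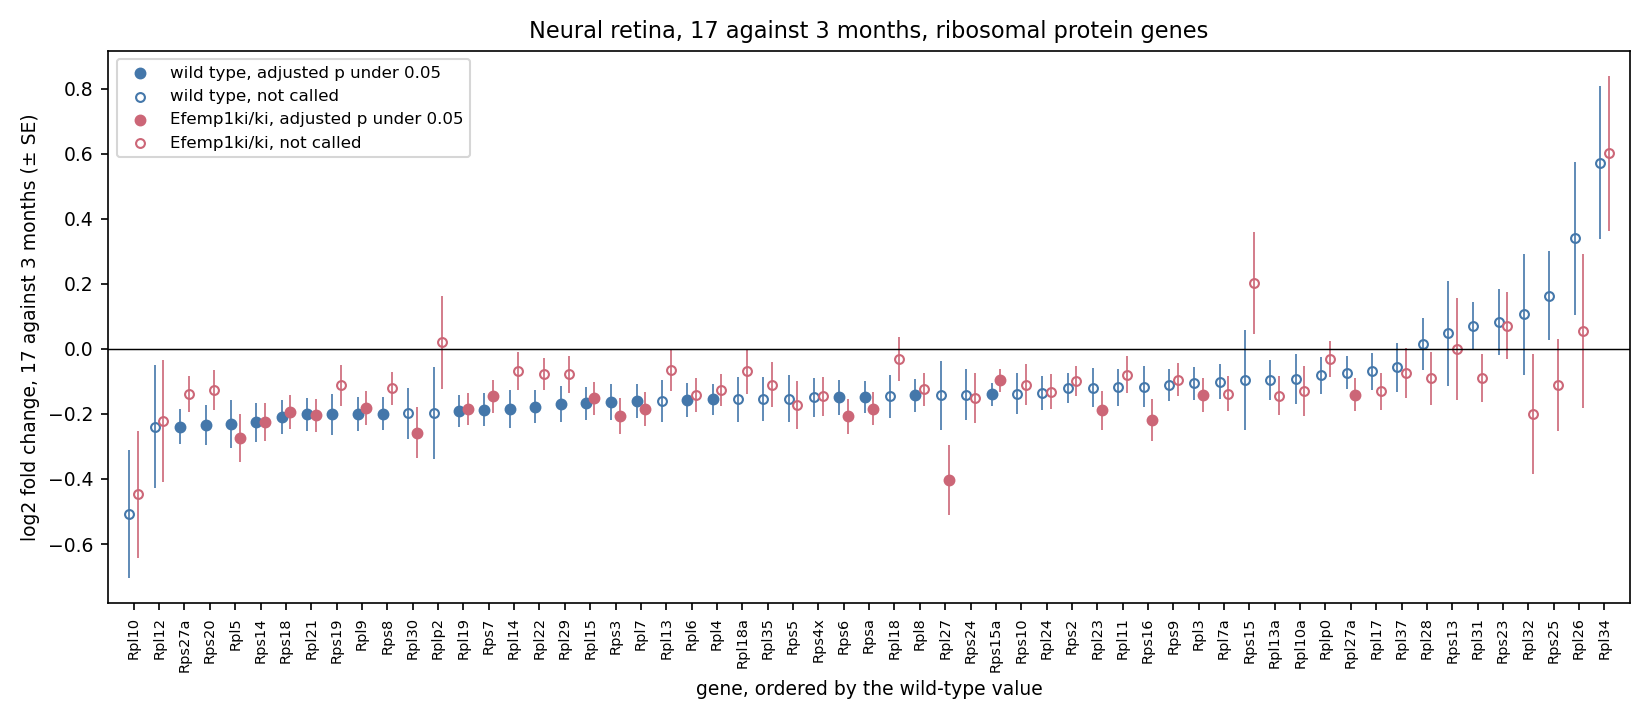
Log2 fold change at 17 against 3 months in the retina (y axis, ± SE) for members tested, ordered by the wild-type value, with 8 libraries per group; filled points passed an adjusted p of 0.05. Of all 60 members tested the estimate was below 0 for 52 in wild type and for 55 in Efemp1ki/ki, and the filled points lie between -0.10 and -0.40.

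The steps between ages were described from the same fit. In wild type the members' median change was -0.23 from 3 to 9 months and 0.08 from 9 to 17 months. In Efemp1ki/ki it was -0.04 and then -0.09. These steps were not tested, nor was their difference. The 9-month group is shared by both steps of a genotype.

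The counts depended on the libraries that stood apart. Without library 2 of the wild-type retinas at 17 months 36 members were called in wild type, 35 of them lower, where 8.62% of all genes were lower. Rpl34 was then called higher (0.67, adjusted p = 0.0352, edgeR), Rpl5 was no longer called (-0.19, adjusted p = 0.0557), and 23 of the 24 were shared. Without library 5 of the Efemp1ki/ki retinas at 3 months 14 members were called in Efemp1ki/ki, 13 of them among the 20, where 5.19% of all genes were lower. Without both libraries the counts were 40 (39 lower, all 24 among them) and 19 (15 of the 20 among them). With GC offsets 36 were called in wild type, 22 of them among the 24, and 27 in Efemp1ki/ki, 14 of them among the 20. The shares of all genes called without both libraries and with GC offsets are not given here, so these counts are not set against them.

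Other lists of the translation machinery were counted in the same fits. Of 29 translation factors and other TOP messages, 11 fell in wild type, 13 fell in Efemp1ki/ki and none rose in either (medians -0.11 and -0.12). Of 72 mitochondrial ribosomal proteins, 6 fell and 1 rose in wild type and 5 fell and 0 rose in Efemp1ki/ki. Of 39 ribosome biogenesis genes, 4 fell in each genotype, and 1 rose in Efemp1ki/ki. Of 16 genes of the integrated stress response, which reduces translation when activated, 0 passed in wild type and 2 rose in Efemp1ki/ki.

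Markers of cell types moved with age as well. Of 10 immune markers tested, 5 rose in wild type and 7 rose in Efemp1ki/ki. The summed immune level ran from 29.9 to 40.5 CPM at 3 months and from 43.5 to 74.9 CPM at 17 months in wild type, and from 26.0 to 35.3 and from 42.5 to 85.8 CPM in Efemp1ki/ki. Of 13 rod markers 5 fell in wild type, and in Efemp1ki/ki 3 fell and 1 rose. Summed rod markers ran from 61335 to 68926 CPM and then from 51356 to 72496 CPM in wild type, and from 54756 to 64377 and then from 49878 to 63873 CPM in Efemp1ki/ki. In wild type 7 of 12 corneal and conjunctival markers fell, with sums of up to 379 CPM at 3 months and up to 71.8 CPM at 17 months. In Efemp1ki/ki 7 of 11 pigment epithelium markers rose (median log2 fold change 0.85 over the 11), with sums of 407 to 497 and 379 to 613 CPM. These sums came mostly from the 1 marker of that list that was lower in the eyecup than in the retina. In the same retinas 5 of 10 lens markers fell, with sums of 1.92 to 800 and 1.74 to 130 CPM. Of 9 mitochondrially encoded genes 1 fell in each genotype (medians -0.28 and -0.39). Their sums ran from 33394 to 40916 CPM at 3 months and from 16324 to 37892 CPM at 17 months in wild type, and from 31236 to 48246 and from 18738 to 35605 CPM in Efemp1ki/ki. The part of these genes and cells in the members' change was not tested.

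In the eyecup, age gave no call among 62 members in either genotype by edgeR, where 5.88% of all 18003 genes were called in wild type and 3.57% in Efemp1ki/ki. The estimates leaned downwards, with 61 of 62 below 0 in wild type (median -0.27) and 56 of 62 in Efemp1ki/ki (median -0.18), larger in size than in the retina. At an unadjusted p under 0.05 there were 26 and 4 members, against 24.6% and 19.1% of all genes. DESeq2 called 1 and 0 members, and 9.45% of all genes in wild type. Without library 4 of the Efemp1ki/ki eyecups at 17 months, which shares the estimate of the spread, 1 member was called in wild type. In that fit 6.69% of all genes were called. The smallest p in wild type belonged to Rpl5, with 32.7 to 42.9 CPM at 3 months (median 35.2) and 23.9 to 34.2 CPM at 17 months (median 28.9), a difference of -0.34 ± 0.11 (adjusted p = 0.0629, edgeR). It passed with GC offsets (-0.31, adjusted p = 0.029), with GC and length offsets (-0.28, adjusted p = 0.0177), without the libraries that stood apart (-0.36, adjusted p = 0.0284), and without library 4 of the Efemp1ki/ki eyecups at 3 months (-0.36, adjusted p = 0.0107). In Efemp1ki/ki the smallest p was that of Rpl27a (-0.31 ± 0.13, adjusted p = 0.174). Markers of other cells moved here too: 5 of 13 corneal and conjunctival markers fell in wild type, with sums of 47724 to 70643 CPM at 3 months and 32756 to 52660 CPM at 17 months, and 9 of 10 lens markers fell. Immune markers rose in both genotypes, 5 of 11 in wild type and 7 of 11 in Efemp1ki/ki. What they contribute was not tested.

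The genotypes were set against each other within each age, and then over the 3 ages averaged. At 3 months in the eyecup 1 of 62 members, Rps23, was higher in Efemp1ki/ki and 0 were lower, where 0.467% of all genes were higher and 2.61% lower. Over the mean of ages it was again Rps23 alone, where 1.12% of all genes were higher and 3.37% lower. Without library 4 of the Efemp1ki/ki eyecups at 17 months 3 members were called, all higher, where 1.28% of all genes were higher. At 9 months 0 members were called (0.00555% of all genes, 0 at an unadjusted p under 0.05 and 0 by DESeq2). At 17 months edgeR called 0 (0.0611% of all genes) with 11 at an unadjusted p under 0.05 (10.0% of all genes). DESeq2 called 1 (0.289% of all genes). The members' median log2 difference was 0.13, -0.05 and 0.21 at the 3 ages and 0.10 over their mean.

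Rps23 encodes a protein of the small subunit's decoding centre. Its gene lies at chr13:90923131-90924942 (GRCm38). In wild-type eyecups it ran from 178 to 235 CPM at 3 months (median 186), from 118 to 237 at 9 months (median 212) and from 138 to 223 at 17 months (median 172). In Efemp1ki/ki eyecups it ran from 201 to 391 CPM (median 294), from 166 to 253 (median 189) and from 188 to 334 (median 254). The genotypes overlapped at every age. All 8 knock-in eyecups at 3 months and all 7 at 17 months lay above the wild-type median, and 6 of 8 at 9 months lay below it.

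The differences for Rps23 were 0.56 ± 0.15 at 3 months (adjusted p = 0.0369, edgeR), 0.04 ± 0.14 at 9 months (adjusted p = 1), 0.58 ± 0.15 at 17 months (adjusted p = 0.129) and 0.40 ± 0.08 over the mean of ages (adjusted p = 0.00484). The 3-month call was lost with the replicate number as a block (0.58, adjusted p = 0.0664), with GC offsets (0.65, adjusted p = 0.0805), and without library 4, whose GC dependence was the steepest (0.50, adjusted p = 0.0855). Whether equal replicate numbers mark related libraries is not stated in the labels. At 3 months the dependence on GC content also separated the genotypes: the slope of a library's log2 levels, relative to the eyecup mean, per 10 percentage points of GC ran from 0.047 to 0.816 in the 8 Efemp1ki/ki eyecups and from -0.099 to -0.029 in the 6 of wild type. Mitochondrially encoded genes summed to 10568 to 98622 CPM (median 36860) in the former and 58874 to 104863 CPM (median 73356) in the latter, with 0 of 9 called. Over the mean of ages 3 of these 9 genes (median -0.48) and 2 of 11 pigment epithelium markers (median -0.15) were lower in Efemp1ki/ki. The part of these measures in the Rps23 difference was not tested. Without library 4 the mean over ages was 0.37 (adjusted p = 0.00583). In the retina the differences for Rps23 were -0.18 ± 0.10, 0.16 ± 0.10 and -0.19 ± 0.10 at the 3 ages, none called.

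**Figure D5:**
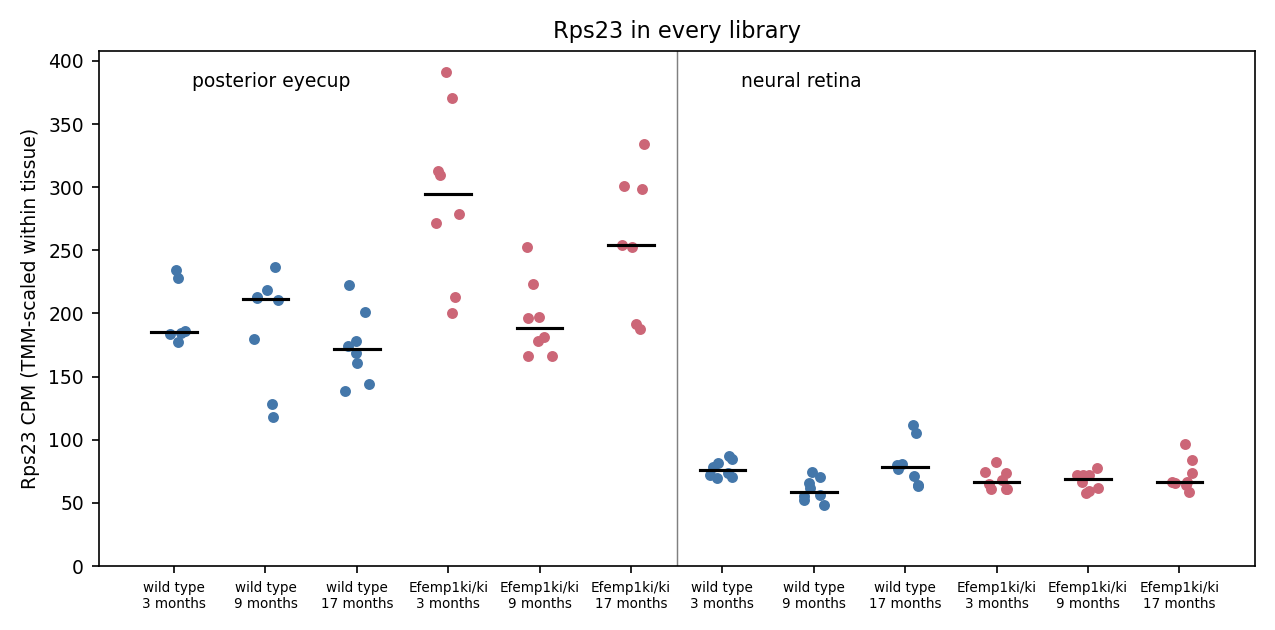
Rps23 (y axis, CPM scaled within each tissue) in each of the 93 libraries by tissue, genotype and age; points are libraries and bars are medians. The Efemp1ki/ki eyecups have medians of 294 CPM at 3 months and 254 CPM at 17 months against 186 and 172 CPM in wild type, and the genotypes overlap at each age.

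In the retina no member was called for genotype by edgeR. The shares of all genes given next are those of edgeR's main fit. Shares by DESeq2 or with a library left out are not given here, so calls in those settings are not set against all genes. At 3 months 1.83% of all genes were called, 21 of 60 members had an unadjusted p under 0.05, and DESeq2 called 1 member, Rpl29 (edgeR -0.19 ± 0.06, adjusted p = 0.0554), which edgeR also called without library 2 of the wild-type retinas at 17 months (-0.19, adjusted p = 0.0342). At 9 months 0% of all genes were called, with 8 members at an unadjusted p under 0.05 and 0 by DESeq2. At 17 months 0.406% were called, with 18 members at an unadjusted p under 0.05 and 2 by DESeq2, 1 of them Rpl27 (edgeR -0.39 ± 0.11, adjusted p = 0.0811). Over the mean of ages 5.24% were called, with 10 and 0 members. At an unadjusted p under 0.05 were 19.7%, 6.07%, 15.2% and 21.7% of all genes at the 3 ages and over their mean. The members' median difference was -0.11, 0.07 and -0.10 at the 3 ages and -0.05 over their mean. Its sign was opposite to that in the eyecup at all 3 ages, a difference between tissues that was not tested.

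Whether the genotype difference at 17 months departed from that at 3 months was tested within each tissue. Neither test called a member or any other gene by edgeR (0% in each). At an unadjusted p under 0.05 there were 2 eyecup members and 0 retina members, against 3.11% and 4.00% of all genes. DESeq2 called 0 members in both.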

How the data were processed

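Polyadenylated RNA of neural retina and posterior eyecup was sequenced from TruSeq stranded libraries, per the labels' protocols. The submitters' processing notes name the build GRCm38.p4. For the aligner, the counter and the annotation nothing is stated there or in the labels. The authors deposited estimated counts per gene, which were rounded for the tests. The values that the authors deposited as TPM have the same sum over protein-coding genes in each library and are treated here as a score, used for levels only. In each file 1 column could be tied to no sample and stayed unused.

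Genes passing filterByExpr were scaled by TMM and fitted with edgeR 4.0.16 in R 4.3.3 (robust quasi-likelihood), 1 fit per tissue over its 6 groups and 1 over all 12, giving 15 comparisons. Calls were made where the p adjusted by Benjamini-Hochberg over all genes tested was under 0.05. Levels are TMM-scaled CPM, scaled over both tissues for the tissue comparison, the cell type markers and the Rpl3l relation and within a tissue otherwise. SE were derived from the F statistic. Permutation tests were 2-sided. Depth was 9218127 to 37475492 counts. Reads are no independent molecules, and the tests rest on the spread between libraries. No 2 libraries of a group were copies (smallest chi-square per degree of freedom 2.29).

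The members and lists were chosen with earlier results of these data known. Named were the tissue-restricted copies, the 3 highest and lowest levels per tissue, the 4 smallest p-values per direction and comparison (1 where none was called), the 3 largest tissue differences, and Rplp0, Rplp2, Rpsa, Rps27a, Rpl5, Rpl11 and Rps23; low-level members, members shared by both genotypes, Rps24, Rps20, Rpl13 and Rps2 as further tissue differences, and genes with pseudogene rows were added after their values were seen. Alternatives were RLE size factors, TMM without the members, no filter beyond 1 read, the replicate number as a block, GC offsets, leaving out libraries over 3 scaled median absolute deviations below their tissue, and DESeq2 1.42.0. Chosen after seeing the data were GC with length offsets, leaving out the eyecup library with the steepest GC dependence, and leaving out each library that stood apart in turn. The replicate numbers were not used to pair libraries in the main fits. In 0 of 16 pairings did every pair's deviations correlate above 0.1, while 23 of 110 single pairs did. That rule is strict and cannot exclude that some numbers mark related libraries. The labels do not say whether a retina and an eyecup came from the same mouse, and the tissue test ignored any such sharing. The fits were tested on simulated counts for the wild-type age comparison of each tissue. Of 100 genes changed by 0.5 on the log2 scale, 36% were called in the eyecup and 78% in the retina. Of 100 changed by 1, the shares were 84% and 97%. Changes below 0.5 were not simulated. Values of 1 member and of 1 marker gene are not reported here by name or in the plots by gene.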

Additional observations from a re-analysis of the deposited data

Results flagged for a closer look

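For 19 named genes and for the members' share of counts, the lowest and highest library of each group with 4 to 10 libraries were examined for a gap to the next library that is large against the group's whole range. Of 237 sets, each a gene or the share within a group, 12 were singled out. Chance alone flags about 5% of sets, so this number is near that of chance. The sets share libraries and are not independent.

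Library 4 of the Efemp1ki/ki eyecups at 3 months was lowest for 4 genes: Rps4x (588 CPM, the next library 802), Rps27a (208 CPM, next 308), Rps15a (145 CPM, next 238) and Rpl5 (17.3 CPM, next 28.1). It is the eyecup library with the steepest GC dependence. Library 5 of the Efemp1ki/ki retinas at 3 months was lowest for Rplp2 (21.4 CPM, next 47.7) and highest for Rpl5 (50.7 CPM, next 38.2), and library 2 of the wild-type retinas at 17 months was highest for Rpl11 (126 CPM, next 102). Both stood apart from their groups over all genes.

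The other values came from 5 libraries. Rplp2 was lowest in library 7 of the wild-type retinas at 9 months (18.6 CPM, next 36.8), and Rpl10 was lowest in library 8 of the Efemp1ki/ki retinas at 17 months (20.4 CPM, next 52.2). Rps27a was highest in library 6 of that group (154 CPM, next 144). Rps6 was lowest in library 7 of the wild-type retinas at 3 months (182 CPM, next 215). Rpl39l was highest in library 5 of the wild-type retinas at 9 months (0.173 CPM, next 0.0414), a level of a few reads.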

How the results depend on the processing

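The number of members called was recomputed under 9 alternatives for 15 comparisons, and without each of the 4 libraries that stood apart in turn in the fits that hold it. Of 167 values 145 stayed within 1.5 times the main count. These include main counts of 0 that stayed at 0, and the change from 24 to 36 in the wild-type retina. With the replicate block, whose numbers are not known to pair libraries, the eyecup genotype count at 3 months went from 1 to 0 (Rps23, adjusted p = 0.0664, edgeR). The retina genotype counts at 3 and 17 months went from 0 to 1 each, and the wild-type retina age count from 24 to 25. The other counts stayed the same with that block. With GC offsets the eyecup genotype count at 3 months was 0 and the wild-type eyecup age count 3. With GC and length offsets the eyecup genotype count over the mean of ages was 2, the eyecup age counts were 8 in wild type and 1 in Efemp1ki/ki, the retina genotype count at 17 months was 2, and the Efemp1ki/ki retina age count was 32, 16 of these shared with the 20. Without the libraries that stood apart the wild-type age count was 5 in the eyecup and 40 in the retina. Without the eyecup library with the steepest GC dependence the genotype count at 3 months was 0 and the wild-type eyecup age count 3. For the wild-type eyecup age counts of 3, 8, 5 and 3 in these 4 settings, 7.84%, 7.94%, 9.68% and 9.78% of all genes were called. With GC and length offsets the shares were 1.20% for the eyecup genotype over the mean of ages and 3.92% for the Efemp1ki/ki eyecup age. With DESeq2 the eyecup genotype counts at 17 months and over the mean of ages were 1 and 2, and the wild-type eyecup age count 1. For these eyecup counts 0.289%, 6.82% and 9.45% of all genes were called. The retina genotype counts at 3 and 17 months were 1 and 2 with DESeq2. Leaving out 1 library that stood apart gave 14 to 24 for the Efemp1ki/ki retina age count (main 20), 27 to 36 for wild type (main 24), 0 to 1 for the retina genotype at 3 months, 1 to 3 for the eyecup genotype over the mean of ages and 0 to 1 for the wild-type eyecup age count. Library 4 of the Efemp1ki/ki eyecups at 17 months gave the 3 and the 1 in the eyecup, and library 2 of the wild-type retinas at 17 months the 1 in the retina. The cause was not tested. Of 738 values for named genes 711 kept direction and side of the threshold, 5 lost and 18 gained the call. The sign of Rplp2 in the Efemp1ki/ki retina with age, never called, turned to -0.027 with GC offsets, -0.030 with GC and length offsets and -0.093 without the libraries that stood apart; without 1 of these at a time it was -0.093 to 0.020. RLE size factors, TMM without the members and no filter left every named gene's direction and call in place. The tissue median was 1.52 to 1.81 over all alternatives, each of which is a fit to the counts and none to the deposited TPM. Rpl10l, Rpl6l and, in the retina, Rpl3l and Rpl39l did not pass the filter on low counts, so no test was made for them there.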
